A study of Homo sapiens with 4 samples.

Results

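The actin cytoskeleton genes were examined in RNA sequencing counts from SAS cells, a human tongue squamous carcinoma line. The group comprised 57 genes chosen by name, from the actins and the proteins that build, cut, cap, cross-link and pull on actin filaments to the transcription factor SRF and its actin-sensing coactivators. This choice was made with earlier results of these data known. All 57 were among the 35767 gene rows of the count table, and 56 had enough reads to be tested beside 20098 genes in all. The labels describe 2 libraries treated with siNAT10, an siRNA to the RNA acetyltransferase NAT10, and 2 libraries treated with siControl, which are called wild type. All 4 came from 1 cell line, and no time or siRNA dose is given. The labels number biological replicates but do not say that cultures were separate. The p-values thus reflect how far these 4 libraries varied, which could be technical variation alone.

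Actin exists as single subunits and as filaments that grow and shrink at their ends. The Arp2/3 complex starts branched filaments, formins such as the DIAPH proteins extend straight ones, capping protein stops growth, cofilin severs, and profilin and the thymosins bind free subunits. Filaments decorated with tropomyosin and pulled on by non-muscle myosin II form contractile bundles, and myosin light chain kinase switches that motor on. The coactivators MKL1 and MKL2, now named MRTFA and MRTFB, are held inactive by free actin subunits and activate SRF when those subunits are used up. SRF binds the CArG box, and actin genes are among its best known targets.

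The label of the compared groups was not borne out by the targeted mRNA. NAT10 had 252.7 and 248.0 CPM (counts relative to the library total after TMM scaling) in the libraries labelled siNAT10, against 240.4 and 230.8 CPM in those labelled siControl, a log2 fold change of 0.09 ± 0.06 (SE, edgeR quasi-likelihood adjusted p = 0.293, 95% interval -0.05 to 0.22). The genotype label of siNAT10 replicate 2 reads as a NAT11 knockdown, another name of NAA40. NAA40 had 18.6 and 18.2 CPM in the libraries labelled siNAT10 and 22.1 and 18.8 CPM in those labelled siControl (adjusted p = 0.255). Every direction below is therefore one between libraries labelled siNAT10 and libraries labelled siControl. Total counts were 35896415 and 30794757 in the libraries labelled siNAT10 and 36341785 and 36068532 in those labelled siControl. Of the 9 epithelial markers measured, KRT8, KRT17, KRT18 and SFN were abundant in all 4 libraries. The squamous keratin KRT5, the basal factor TP63 and E-cadherin (CDH1) were at 1.29 CPM or less in every library, so SAS cells carried only some markers of squamous epithelium.

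Most of the actin genes that changed were higher in the libraries labelled siNAT10. Of the 56 tested genes, 34 rose and 4 fell at an adjusted p below 0.05, while 18 did not pass. Over all genes tested, 19.7% rose and 20.7% fell, so that 40.4% passed, against 67.9% of the actin genes. The median log2 fold change was 0.23 over the actin genes and -0.01 over all genes. The actin genes were abundant, and abundant genes passed more often: among genes at or above 20 CPM, 58.4% passed (33.3% rising, 25.1% falling), with 33 of 51 actin genes rising and 3 falling. In total they held 2.88% and 2.86% of all counts in the libraries labelled siNAT10, against 2.42% and 2.48% in those labelled siControl. The changes were mostly small. Only 15 passed with a log2 fold change of at least 0.5 in size, which 22.4% of all genes did. In all, 3 of 56 reached 2-fold, which 8.36% of all genes did: MYLK and ACTB upward and DIAPH2 downward. Among genes at or above 20 CPM, 14 of 51 actin genes and 1330 of all 6802 passed with a size of at least 0.5. There 2 actin genes rose at least 2-fold and 0 fell, against 71 and 133 of all 6802. The CPM values of the 2 labels did not overlap for 46 of the 56, against 69.5% of all genes. Among genes at or above 20 CPM, this held for 43 of 51 actin genes and for 5462 of all 6802, which are similar shares.

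**Figure D1:**
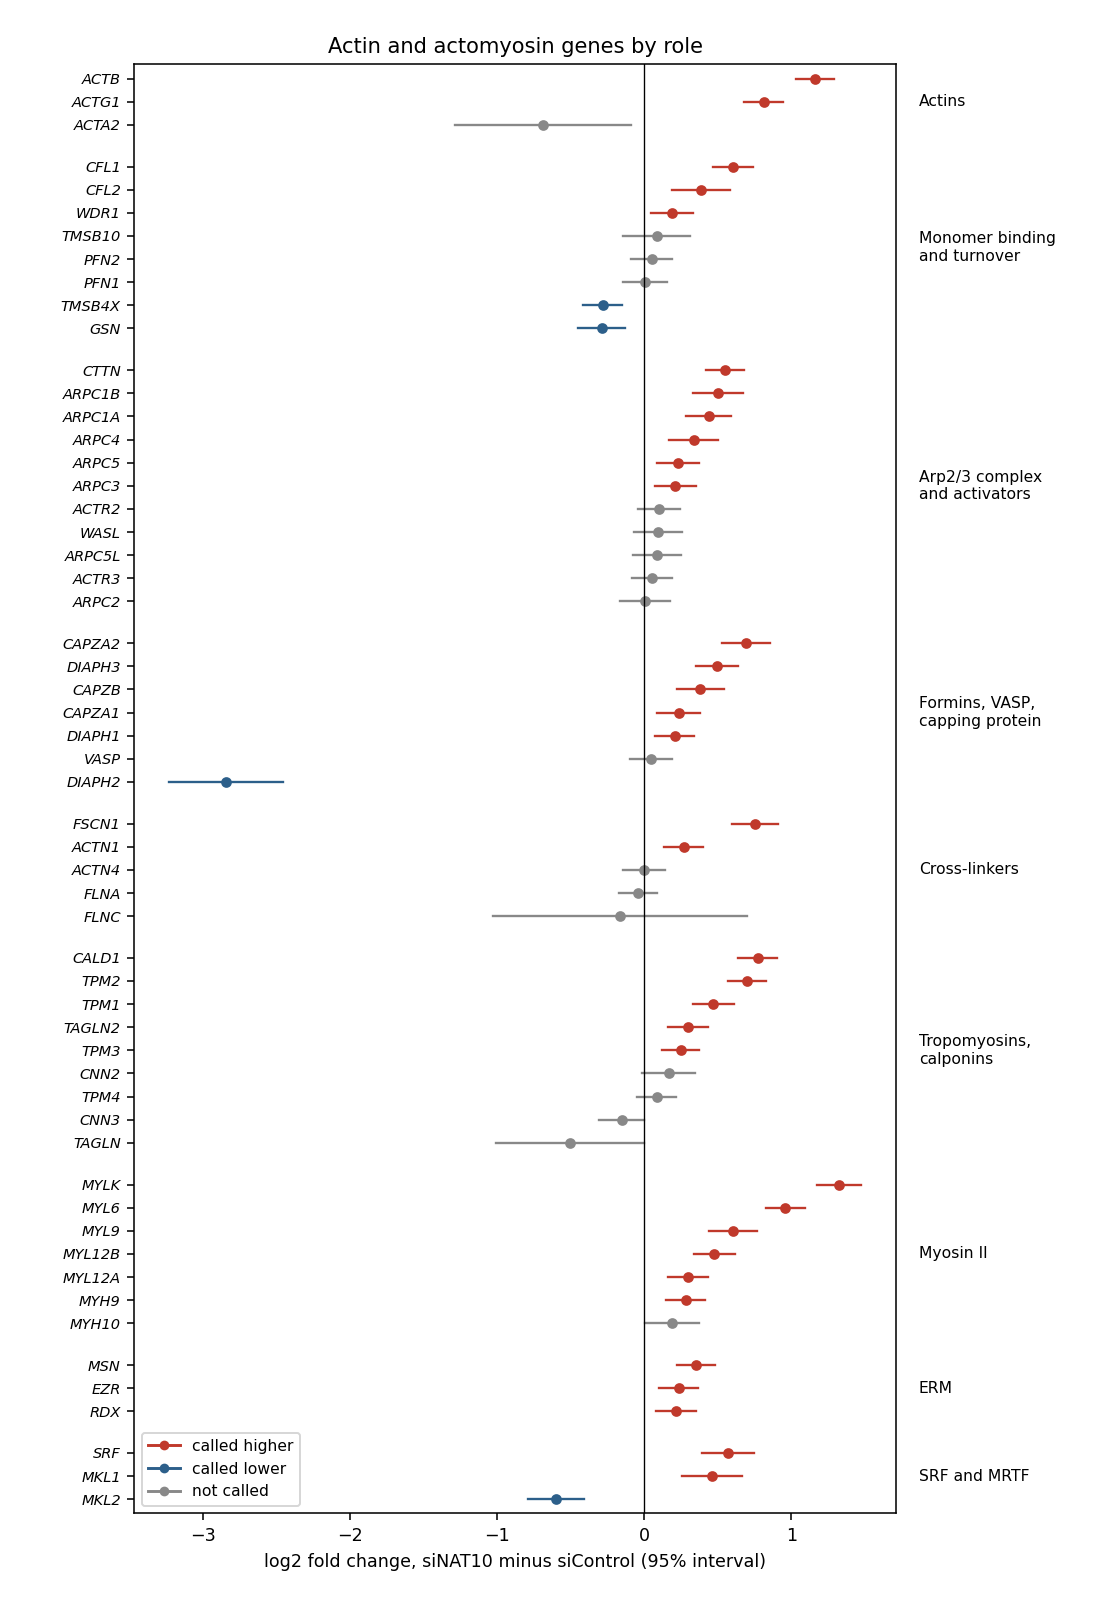
Log2 fold change of each tested actin gene, libraries labelled siNAT10 over libraries labelled siControl, with its 95% interval, grouped by role. The points lie mostly right of 0, with MYLK and ACTB farthest right and DIAPH2 alone far to the left at -2.84.

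Scaling bears on the smaller values. With library totals in place of TMM factors, the median of all genes moved to -0.12 and that of the actin genes to 0.12, and 25 actin genes rose while 7 fell, against 13.4% and 27.9% of all genes. Without siNAT10 replicate 2, the library with the NAT11 label, 28 actin genes rose and 4 fell, against 13.6% and 15.2% of all genes.

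The CArG box, the sequence that SRF binds, was searched for because SRF and actin genes are in the group. It was defined as 2 C, then 6 positions of A or T, then 2 G, and was read on both strands in the RefSeq promoters of GRCh38.p14, each with 250 bases before and 50 after a transcript start. Of the 57 genes, 50 had at least 1 such promoter, with 86 in all. A box was present in 7 of these 86 promoters (8.14%), against 454 of 35116 promoters of all genes (1.29%). It was held by 4 of the 29 genes that rose and had a promoter (MYLK, ACTG1, SRF and ACTN1). It was also held by 3 of the 16 that did not pass and had a promoter (FLNA, TPM4 and CNN2). No promoter was at hand for ACTB, ARPC1B, CTTN, FSCN1 and MYL9, which rose, or for PFN2 and TAGLN, which did not pass. The box counts leave these genes out, so frequencies in rising and uncalled genes cannot be compared. None of the promoters of the 4 genes that fell held a box. A match describes these letters and is not evidence of binding. The motif GGAATG, read on both strands as the core bound by TEAD factors, was in 15.1% of the actin genes' promoters and 14.0% of all promoters.

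The 250 bases before the start are shown for the 4 genes that rose and held a box, 5′ to 3′ on the gene's strand, with the CArG box in capitals. The MYLK stretch (chr3:123620549-123620798, minus strand) lies within the gene near its 3′ end, before an internal start, and its box begins 94 bases before that start. The ACTG1 stretch (chr17:81512800-81513049, minus strand) has its box at the same distance, 94 bases. The SRF stretch (chr6:43171019-43171268, plus strand) has 2 boxes, beginning 30 and 10 bases before the start. The ACTN1 stretch (chr14:68977567-68977816, minus strand) belongs to 1 of 4 listed starts, with its box 171 bases before it.
MYLK: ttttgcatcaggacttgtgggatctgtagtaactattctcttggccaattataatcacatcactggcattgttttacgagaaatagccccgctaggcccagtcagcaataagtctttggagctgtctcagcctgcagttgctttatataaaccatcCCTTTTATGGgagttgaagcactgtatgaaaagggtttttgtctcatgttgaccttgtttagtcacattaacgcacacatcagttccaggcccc
ACTG1: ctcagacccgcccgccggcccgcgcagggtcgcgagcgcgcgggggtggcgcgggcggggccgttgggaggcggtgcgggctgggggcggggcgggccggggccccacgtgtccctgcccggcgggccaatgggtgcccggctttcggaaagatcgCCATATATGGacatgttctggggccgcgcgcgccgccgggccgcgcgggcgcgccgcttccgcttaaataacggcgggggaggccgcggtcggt
SRF: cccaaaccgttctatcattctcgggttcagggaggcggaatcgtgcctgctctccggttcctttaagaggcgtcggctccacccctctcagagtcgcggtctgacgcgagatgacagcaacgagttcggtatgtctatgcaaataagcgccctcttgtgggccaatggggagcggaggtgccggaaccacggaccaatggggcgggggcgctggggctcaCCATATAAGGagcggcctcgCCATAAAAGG
ACTN1: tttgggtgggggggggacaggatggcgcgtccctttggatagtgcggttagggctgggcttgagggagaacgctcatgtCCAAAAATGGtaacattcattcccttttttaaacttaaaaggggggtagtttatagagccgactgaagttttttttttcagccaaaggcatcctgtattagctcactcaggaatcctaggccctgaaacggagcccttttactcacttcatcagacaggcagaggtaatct

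The 2 cytoplasmic actins rose together. ACTB, beta-actin (chromosome 7, 5527151 to 5563784, GRCh38 as are all positions here), had 1661.6 and 1700.3 CPM in the libraries labelled siNAT10, against 749.2 and 753.3 CPM in those labelled siControl. The 2 libraries of each label lay close together and the labels did not overlap, a 2.24-fold difference with a log2 fold change of 1.16 ± 0.06 (SE, adjusted p = 3.18e-11). ACTG1, gamma-actin (chromosome 17, 81509971 to 81523847), had 1330.7 and 1431.8 CPM in the libraries labelled siNAT10, against 794.5 and 779.0 CPM in those labelled siControl, a log2 fold change of 0.81 ± 0.06 (adjusted p = 6.94e-09). Both rose in every one of the 13 alternative analyses. ACTB is often taken as a constant reference in expression assays, and in these libraries its level was not constant.

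The smooth muscle actin ACTA2 was scarce, with 29 to 68 counts in a library, and did not pass the test. It had 1.18 and 0.983 CPM in the libraries labelled siNAT10 and 1.79 and 1.72 CPM in those labelled siControl (log2 fold change -0.69 ± 0.29, adjusted p = 0.063). ACTA2 shares 17.3% of its exon bases with ACTA2-AS1 and 12.8% with FAS, both on the opposite strand. FAS had 248 and 226 counts in the libraries labelled siNAT10 and 313 and 321 in those labelled siControl. The part of such reads in the ACTA2 value was not tested. The summed level of the 6 smooth muscle markers measured was 16.2 and 16.1 CPM in the libraries labelled siNAT10 and 26.8 and 28.1 CPM in those labelled siControl, with none at 0 in all libraries. The markers did not move as 1: DES, MYH11 and SYNPO2 fell, MYOCD rose at a low level (35 and 22 counts in the libraries labelled siNAT10, 8 and 6 in those labelled siControl), LMOD1 did not pass and ACTG2, with 6 counts or fewer in every library, was not tested. Their part in the ACTA2 value was not tested. The muscle-type genes CNN1, TAGLN and FLNC were also scarce. CNN1 had 0 and 11 counts in the libraries labelled siNAT10 and 3 and 3 in those labelled siControl and could not be tested, and neither TAGLN (adjusted p = 0.101) nor FLNC (adjusted p = 0.782) passed.

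**Figure D2:**
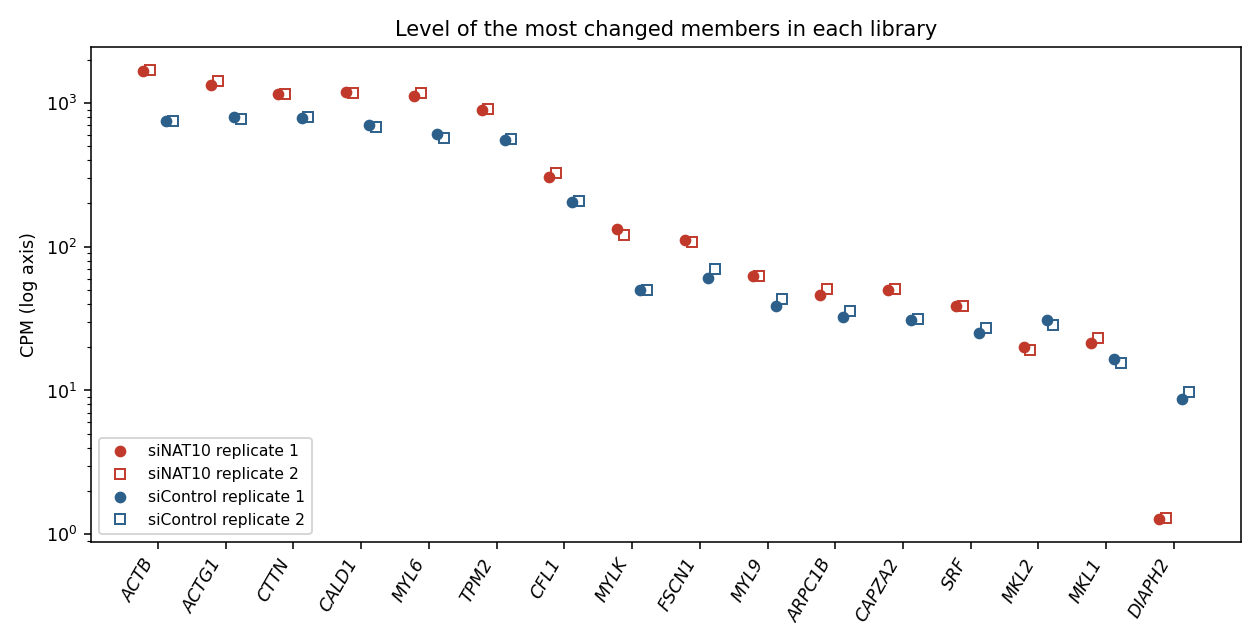
CPM of the named actin genes in each library on a log axis, with libraries labelled siNAT10 left of those labelled siControl. ACTB stands at 1661.6 and 1700.3 CPM in the libraries labelled siNAT10 and at 749.2 and 753.3 CPM in those labelled siControl, and DIAPH2 is the lowest of the genes shown.

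Among the genes that handle actin subunits and filament turnover, 3 of 8 rose, 2 fell and 3 did not pass, with a median log2 fold change of 0.07. Calls thus made up 62.5%, near the 58.4% among all genes at or above 20 CPM. CFL1, the main cofilin, which severs filaments (chromosome 11, 65823022 to 65862026), had 306.7 and 324.3 CPM in the libraries labelled siNAT10 and 206.3 and 209.0 CPM in those labelled siControl (log2 fold change 0.60 ± 0.06, adjusted p = 4.02e-07). The muscle-enriched cofilin CFL2 rose by 0.38 on the log2 scale (adjusted p = 0.00298). CFL1 shares 6.1% of its exon bases with SNX32 on the opposite strand, which was also higher, and 12.9% with MUS81, which had 832 and 648 counts in the libraries labelled siNAT10 and 995 and 996 in those labelled siControl. Reads of these overlaps could not be assigned. Thymosin beta 4, TMSB4X, which sequesters free subunits, went the other way, with 275.5 and 278.4 CPM in the libraries labelled siNAT10 and 332.6 and 342.0 CPM in those labelled siControl (log2 fold change -0.28 ± 0.06, adjusted p = 0.0012). GSN, gelsolin, a calcium-activated severing protein, also fell (-0.29 ± 0.08, adjusted p = 0.0052), though nearly all of its reads were also counted for AL513122.1 and AL513122.2 on the same strand. Its call was lost without siNAT10 replicate 1. WDR1, a cofilin cofactor, rose by 0.19 (adjusted p = 0.034), a call lost with library totals, with DESeq2 and without siNAT10 replicate 1, siNAT10 replicate 2 or siControl replicate 1. Profilin 1, which feeds subunits to growing ends, had 98.9 and 108.8 CPM in the libraries labelled siNAT10 and 100.2 and 106.6 CPM in those labelled siControl. Its log2 fold change was 0.01, with a 95% interval from -0.14 to 0.15. PFN1 shares 5.6% of its exon bases with ENO3 on the opposite strand, which had a log2 fold change of -1.5. ENO3 had 1921 and 1729 counts in the libraries labelled siNAT10 and 5835 and 6290 in those labelled siControl. The part of ENO3 reads in the PFN1 value was not tested.

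In the Arp2/3 group, which holds the complex, its activator WASL and the branch-stabilising protein CTTN, 6 of 11 genes rose, none fell and 5 did not pass. This 54.5% is near the 58.4% called, in either direction, among all genes at or above 20 CPM. The log2 fold changes ran from 0.01 to 0.55, with a median of 0.21. With library totals the calls of ARPC3 and ARPC5 were lost and the 5 uncalled genes turned negative; the ARPC3 call was also lost without either library labelled siNAT10 or without siControl replicate 1, and the ARPC5 call without siNAT10 replicate 1. CTTN, cortactin (chromosome 11, 70398404 to 70436584), had 1163.1 and 1158.3 CPM in the libraries labelled siNAT10 and 791.8 and 794.5 CPM in those labelled siControl, a log2 fold change of 0.55 ± 0.06 (adjusted p = 7.05e-07). ARPC1B, 1 of 2 alternative forms of the same subunit, had 46.4 and 50.6 CPM in the libraries labelled siNAT10 and 32.7 and 35.7 CPM in those labelled siControl (0.50 ± 0.08, adjusted p = 6.57e-05). The other form, ARPC1A, rose by 0.44 on the log2 scale (adjusted p = 9.18e-05), but the 2 genes overlap on chromosome 7 and their values are not independent. ARPC1B also shares 2.5% of its exon bases with PDAP1 on the opposite strand, which had 73604 and 58154 counts in the libraries labelled siNAT10 and 53251 and 58160 in those labelled siControl, far more than ARPC1B, and a log2 fold change of 0.47. The part of PDAP1 reads in the ARPC1B value was not tested. The core subunits ACTR2 and ACTR3, which mimic an actin pair to start the branch, did not pass, with 95% intervals of -0.05 to 0.24 and -0.08 to 0.19.

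The formins did not move together. DIAPH2 (chromosome X, 96684663 to 97604997) had 44 and 38 counts in the libraries labelled siNAT10, against 330 and 362 in those labelled siControl. On the CPM scale these are 1.27 and 1.29 against 8.67 and 9.75, which is 7.2-fold lower in the libraries labelled siNAT10 (log2 fold change -2.84 ± 0.18, adjusted p = 5.34e-10). DIAPH2 was the one actin gene among the 5.62% of all genes that fell at least 2-fold, and it was scarce under both labels. Its relative DIAPH3, by contrast, had 174.4 and 182.6 CPM in the libraries labelled siNAT10 and 131.0 and 122.4 CPM in those labelled siControl (0.49 ± 0.07, adjusted p = 7.95e-06). DIAPH1, the most abundant of the family, rose by 0.21 on the log2 scale (adjusted p = 0.0132), a call lost with library totals and without either library labelled siNAT10. As a share of the 3 formins' summed CPM per kb of gene length, DIAPH2 made up 0.131% and 0.128% in the libraries labelled siNAT10 and 1.02% and 1.21% in those labelled siControl.

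All 3 capping protein genes rose, where 33.3% of all genes at or above 20 CPM did. CAPZA2, an alpha subunit of the barbed-end cap (chromosome 7, 116811070 to 116922049), had 49.6 and 51.1 CPM in the libraries labelled siNAT10 and 31.0 and 31.3 CPM in those labelled siControl (log2 fold change 0.69 ± 0.08, adjusted p = 7.82e-07). The other alpha subunit, CAPZA1, rose by 0.23 (adjusted p = 0.0126) and the beta subunit CAPZB by 0.38 (adjusted p = 0.000452). The CAPZA1 call was lost with library totals (adjusted p = 0.183) and without siNAT10 replicate 2. CAPZA2 was 19.5% and 18.3% of the alpha subunits' CPM per kb in the libraries labelled siNAT10 and 14.3% and 14.6% in those labelled siControl. VASP, which shields growing ends from the cap, had a log2 fold change of 0.05 (95% interval -0.10 to 0.19) and did not pass. Of the 7 formin, VASP and capping genes, 5 rose and 1 fell. The share called was 85.7%, against 58.4% among all genes at or above 20 CPM.

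Of the 5 cross-linkers, 2 rose and 3 did not pass. This share of calls is near the 40.4% of all genes and below the 58.4% at or above 20 CPM, both directions counted. FSCN1, fascin, which packs filaments into the parallel bundles of filopodia (chromosome 7, 5592823 to 5606655), had 111.9 and 107.8 CPM in the libraries labelled siNAT10 and 60.7 and 69.7 CPM in those labelled siControl, a log2 fold change of 0.75 ± 0.08 (adjusted p = 1.62e-07). The 2 most abundant cross-linkers had narrow intervals around 0. ACTN4, an alpha-actinin, had 1584.7 and 1661.1 CPM in the libraries labelled siNAT10 and 1520.6 and 1730.6 CPM in those labelled siControl (95% interval -0.15 to 0.14). FLNA, filamin A, which joins filaments into nets, had 1575.7 and 1563.6 CPM in the libraries labelled siNAT10 and 1569.7 and 1668.1 CPM in those labelled siControl (95% interval -0.17 to 0.09). ACTN1 rose by 0.27 on the log2 scale (adjusted p = 0.00228), a call lost with library totals (adjusted p = 0.0567) and without siNAT10 replicate 2.

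Among the filament-decorating genes, 5 of 9 tested rose, none fell and 4 did not pass. This 55.6% is near the 58.4% called, in either direction, among all genes at or above 20 CPM. TPM2, beta-tropomyosin (chromosome 9, 35681992 to 35691020), had 897.1 and 909.7 CPM in the libraries labelled siNAT10 and 548.9 and 565.1 CPM in those labelled siControl (log2 fold change 0.70 ± 0.06, adjusted p = 3.52e-08). CALD1, caldesmon, which binds actin, myosin and tropomyosin (chromosome 7, 134744252 to 134970728), had 1186.9 and 1171.9 CPM in the libraries labelled siNAT10 and 707.8 and 676.0 CPM in those labelled siControl (0.77 ± 0.06, adjusted p = 1.04e-08). Of the other tropomyosins, TPM1 rose by 0.47 (adjusted p = 1.18e-05) and TPM3 by 0.25 (adjusted p = 0.00281, but 0.0814 with library totals), while TPM4 was at 0.08 and did not pass (adjusted p = 0.312). TAGLN2, the transgelin of non-muscle cells, rose by 0.30 (adjusted p = 0.00109), while the calponins CNN2 and CNN3 did not pass.

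The tropomyosin and actin families differed in make-up between the labels. TPM2 was 29.4% and 30.2% of tropomyosin CPM per kb in the libraries labelled siNAT10 and 23.1% and 22.9% in those labelled siControl, while TPM4 was 30.1% and 29.4% against 34.9% and 35.5%. ACTB was 53.3% and 52.0% of actin CPM per kb in the libraries labelled siNAT10 and 46.2% and 46.9% in those labelled siControl. The shares are given as descriptions, with no test. TPM4 shares 8.8% of its exon bases with CTD-2231E14.2 on the opposite strand, which had a log2 fold change of -0.15 and did not pass. TPM1 shares 17.2% with RP11-244F12.3 on the opposite strand, which fell (log2 fold change -0.53). The part of such reads in the tropomyosin shares was not tested. Gene length here is the whole length of all exons in the count table, so shares of genes with many isoforms are understated.

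**Figure D3:**
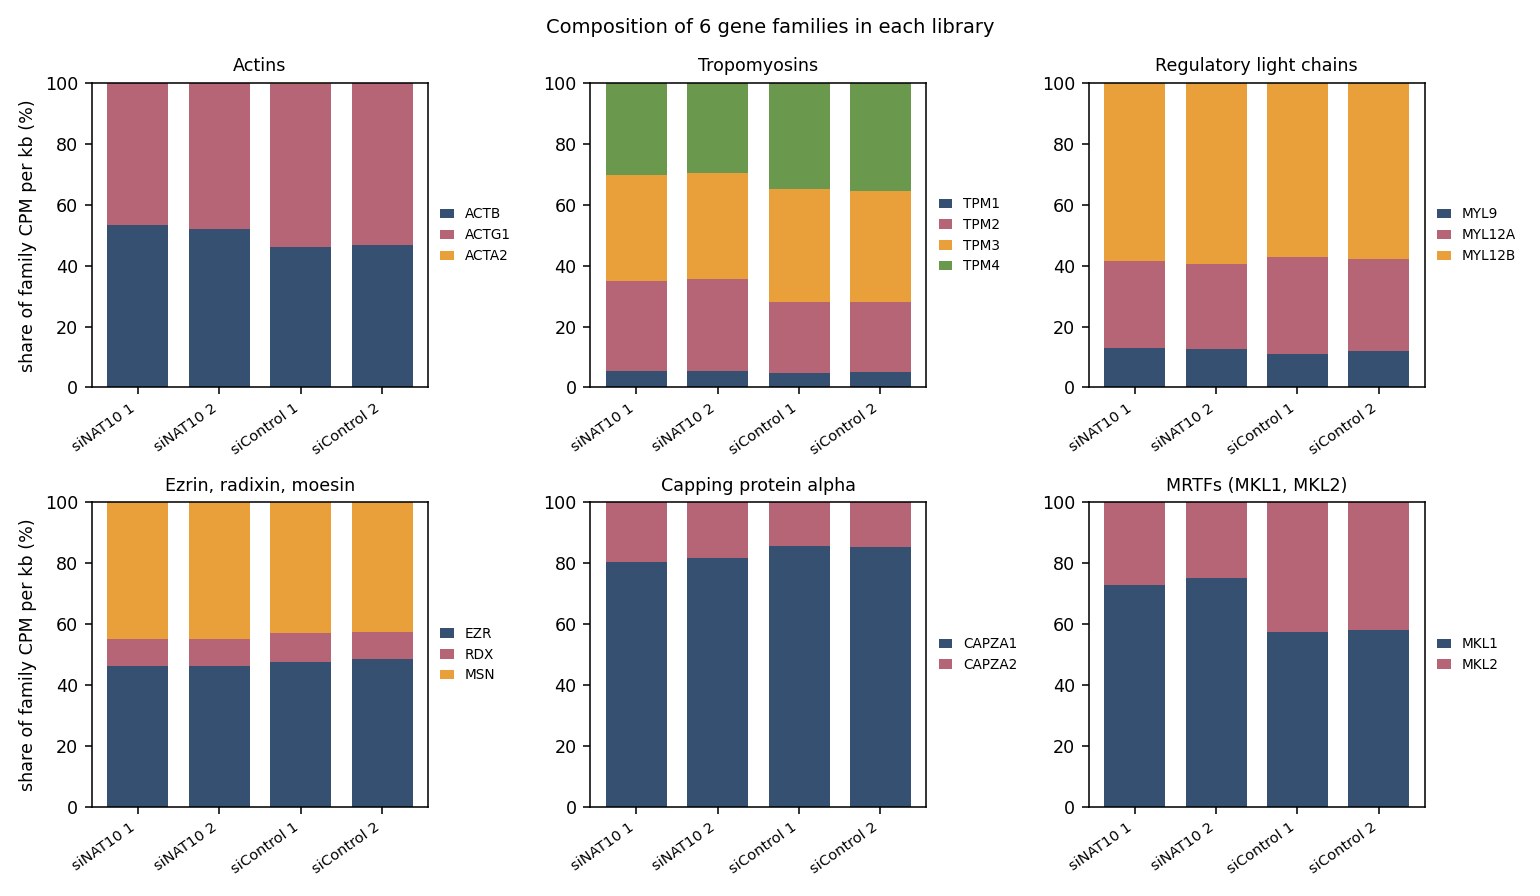
Share of each member in its family's summed CPM per kb of gene length, in percent, for each library, those labelled siNAT10 left of those labelled siControl. The shares of ACTB, TPM2 and MKL1 are higher in both libraries labelled siNAT10.

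In the myosin II group, 6 of 7 genes rose and 1 did not pass, with a median log2 fold change of 0.47. The share called was 85.7%, against 58.4% among all genes at or above 20 CPM. MYLK, the kinase that phosphorylates the regulatory light chain and so starts contraction (chromosome 3, 123610049 to 123884331), had 132.2 and 119.7 CPM in the libraries labelled siNAT10 and 50.3 and 50.3 CPM in those labelled siControl. This 2.5-fold difference was the largest rise among the actin genes, at a log2 fold change of 1.32 ± 0.07 (adjusted p = 4.71e-11), where 2.74% of all genes rose at least 2-fold. MYL6, the essential light chain (chromosome 12, 56158161 to 56163496), had 1112.8 and 1171.2 CPM in the libraries labelled siNAT10 and 605.1 and 569.5 CPM in those labelled siControl (0.96 ± 0.06, adjusted p = 7.97e-10). The neighbouring MYL6B, which shares 1.9% of the exon bases of MYL6, was higher as well, and reads in the shared bases could not be assigned to 1 gene. MYL6 also shares 11.2% of its exon bases with SMARCC2 on the opposite strand. SMARCC2 had 17509 and 14918 counts in the libraries labelled siNAT10 and 17799 and 17502 in those labelled siControl. The part of SMARCC2 reads in the MYL6 value was not tested.

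The regulatory light chains rose as well. MYL9 (chromosome 20, 36541484 to 36551447) had 62.2 and 62.5 CPM in the libraries labelled siNAT10 and 38.6 and 43.5 CPM in those labelled siControl (0.60 ± 0.08, adjusted p = 4.27e-06). MYL12B rose by 0.47 (adjusted p = 1.24e-05) and MYL12A by 0.30 (adjusted p = 0.00111). The heavy chain MYH9, which made up 99.3% to 99.4% of MYH9 and MYH10 CPM per kb in every library, had 4583.0 and 4346.4 CPM in the libraries labelled siNAT10 and 3579.6 and 3770.8 CPM in those labelled siControl, a rise of 0.28 ± 0.06 (adjusted p = 0.00125). MYH10 had a log2 fold change of 0.19 and did not pass (adjusted p = 0.0993). Ezrin, radixin and moesin, which tie filaments to the membrane, all rose, MSN by 0.35 (adjusted p = 0.00012), EZR by 0.23 (adjusted p = 0.00569) and RDX by 0.22 (adjusted p = 0.0109). Among all genes at or above 20 CPM, 33.3% rose. The EZR and RDX calls were lost with library totals and without siNAT10 replicate 1, and that of RDX also without siNAT10 replicate 2.

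SRF and its 2 coactivators all passed, where 40.4% of all genes did, but they did not change in the same direction. SRF (chromosome 6, 43171299 to 43181507) had 38.7 and 39.0 CPM in the libraries labelled siNAT10 and 25.1 and 27.3 CPM in those labelled siControl, a log2 fold change of 0.57 ± 0.08 (adjusted p = 2.3e-05). MKL1 (chromosome 22, 40410281 to 40636702) had 21.3 and 23.0 CPM in the libraries labelled siNAT10 and 16.6 and 15.6 CPM in those labelled siControl (0.46 ± 0.10, adjusted p = 0.000861). MKL2 (chromosome 16, 14071321 to 14266773) had 693 and 562 counts in the libraries labelled siNAT10 and 1175 and 1053 in those labelled siControl, or on average 19.5 CPM against 29.6 CPM (-0.60 ± 0.09, adjusted p = 3.31e-05). MKL1 thus made up 72.8% and 75.2% of the coactivators' CPM per kb in the libraries labelled siNAT10, against 57.4% and 58.0% in those labelled siControl. These are mRNA levels and say nothing of where the proteins are in the cell.

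Genes of the same pathways outside the 57 were read from 4 lists with 125 genes, of which 115 were tested. Over these lists 40 genes rose and 30 fell, with a median log2 fold change of -0.001. Of the tested genes 60.9% passed, near the 58.4% of all genes at or above 20 CPM. In the list of other nucleators and turnover proteins, 15 of 42 genes fell and 11 rose (median -0.10), or 7 rose with library totals. Both directions were more frequent than over all genes, of which 20.7% fell and 19.7% rose. Against genes at or above 20 CPM, the share that rose was lower (33.3% there) and the share that fell higher (25.1% there). This list was not tested as a whole. TMOD2, a pointed-end cap, fell by 1.54 (adjusted p = 5.52e-08), and the formin FMNL1 by 0.65 (adjusted p = 7.32e-07). Destrin, DSTN, a close relative of cofilin, had 439.1 and 471.7 CPM in the libraries labelled siNAT10 and 253.1 and 249.1 CPM in those labelled siControl (0.86 ± 0.07, adjusted p = 4.07e-09). CAP2, a cyclase-associated protein that recycles actin, rose by 0.90. In the list of other bundling and linker proteins 10 of 29 rose and 8 fell, so that 62.1% passed, near the share at or above 20 CPM. ANLN, anillin, which links actin and myosin in the ring that divides a cell, rose by 1.06 and NF2, merlin, by 0.95, while ESPN, espin, fell by 0.89 and SVIL, supervillin, by 0.86.

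Of the other actins and myosins, 10 of 20 rose and 3 fell (median 0.21), with MYL6B and the transport motor MYO5A (0.77) rising most and MYH14 falling by 0.43 among those above 10 CPM. Without siNAT10 replicate 2, 6 of these genes rose, and without siNAT10 replicate 1, 1 fell, while 7 fell with library totals. In the main test 65.0% of the other actins and myosins passed, against 58.4% of all genes at or above 20 CPM. Among 24 tested genes known as SRF targets or cofactors, 9 rose and 4 fell (median 0.16). This 54.2% is near the 58.4% called, in either direction, among all genes at or above 20 CPM. Among those at 10 CPM or more, the largest rises were ANKRD1, CTGF, CYR61 and THBS1, which are also well known targets of the YAP and TEAD factors. THBS1, a matrix glycoprotein, had 92.0 and 80.3 CPM in the libraries labelled siNAT10 and 27.2 and 25.9 CPM in those labelled siControl (1.70 ± 0.08, adjusted p = 7.2e-12). The 4 that fell, named after their values were seen, were JUNB, IER2, CSRP2 and MCL1.

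**Figure D4:**
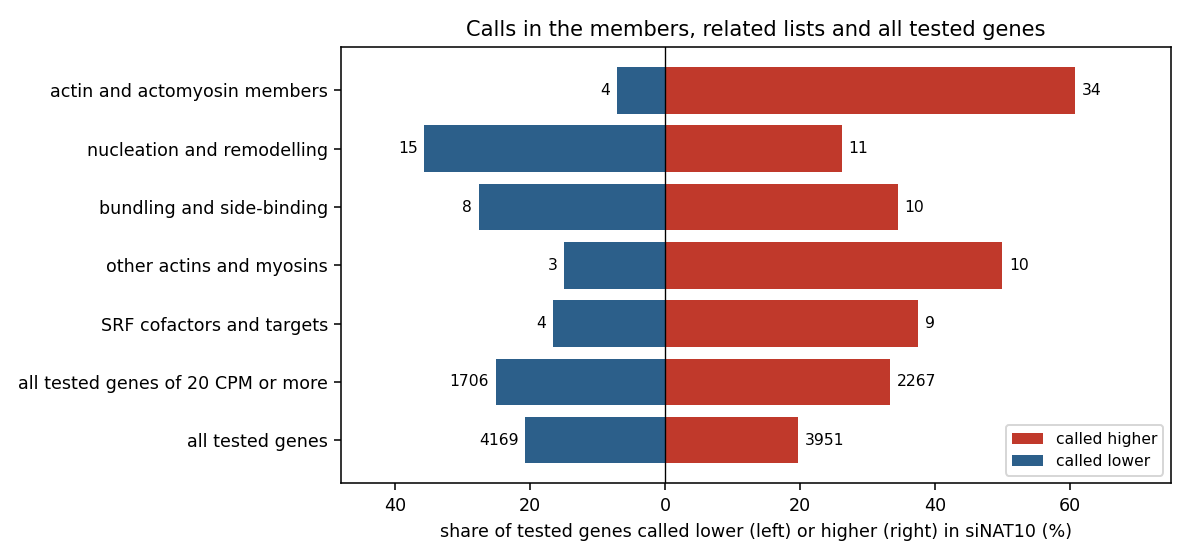
Percent of tested genes that rose or fell in the 57 actin genes, in each companion list, over genes of 20 CPM or more and over all genes, libraries labelled siNAT10 over those labelled siControl. The bar of the actin genes has 34 rising and 4 falling, whereas the list of nucleators and turnover proteins has 11 rising and 15 falling.

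Gene position moved with some of these values. Fold changes of all genes differed by chromosome, with a median log2 fold change of 0.20 on chromosome 7, 0.29 on chromosome 15 and -0.22 on chromosome 16. Chromosome 7 holds 8 of the actin genes, ACTB, FSCN1, CALD1 and CAPZA2 among them, and 6 of these 8 rose and none fell (median 0.60), where 321 of all 1014 genes on that chromosome rose and 113 fell, while MKL2 is on chromosome 16. Outside chromosomes 7, 15 and 16, 27 of 46 actin genes rose and 3 fell, with a median of 0.22. Of all 17310 genes there, 3226 rose and 3668 fell, with a median of -0.02. Within 5 Mb of TPM1 on chromosome 15, 91 other genes had a median of 0.41, close to the 0.47 of TPM1 itself. Around MKL2, 86 genes had a median of -0.33, against -0.60 for MKL2. Around ACTB, 88 genes had a median of 0.11, and around MYLK, 80 genes had a median of -0.05, far below the values of ACTB and MYLK. The part that position has in these values was not tested.

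**Figure D5:**
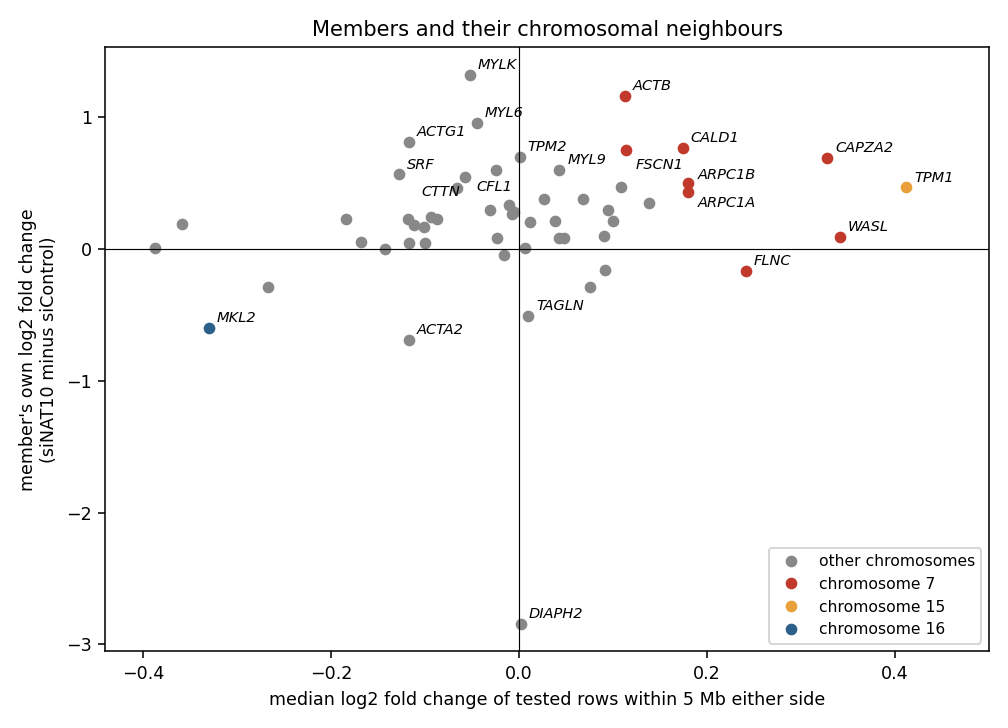
Median log2 fold change of the genes within 5 Mb of each actin gene (horizontal) against that gene's own log2 fold change (vertical), for genes with at least 20 such neighbours. MYLK, ACTB and MYL6 lie well above their neighbours, DIAPH2 lies far below them, and TPM1 and MKL2 have neighbours that moved the same way.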

How the data were processed

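Counts per gene for 4 libraries were deposited by the authors as 1 table of raw counts. The submitters' processing notes name featureCounts, fastp 0.23.4, STAR 2.5.3a and build GRCh38. They give no annotation release, strand setting or handling of PCR copies. Between 72.0% and 73.5% of low counts in a library were even, as counting both mates of a pair would give, and a read in 2 overlapping genes counted for both. Rows overlapping another in their exons were present for 28 of the 57 genes.

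The whole table was fitted with edgeR 4.0.16 under R 4.3.3 (quasi-likelihood test, robust, group only, filterByExpr, TMM), two-sided, with Benjamini-Hochberg adjustment over 20098 rows and a threshold of 0.05. All adjusted p-values in the text are from that test unless another tool is named. Log2 fold changes are given as siNAT10 minus siControl, with 2 libraries a group. Their SE is the size of the log2 fold change divided by the square root of the test's F statistic. That test moderates each gene's spread with information from all tested genes. A floor of 3 counts was 0.0825 to 0.0974 CPM on raw library totals, before TMM scaling; SE and intervals cover counting error and the spread between libraries only.

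The chi-square per degree of freedom between the libraries of 1 label was 5.15 for siNAT10 and 8.79 for siControl. Counting both mates of a pair would raise these values. Each library was treated as 1 replicate, but such spread does not show that cultures were separate.

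Genes with values in every library were ACTB, ACTG1, SRF, MKL1, MKL2 and those that passed with a log2 fold change of at least 0.5 in size; further genes were named after their values were seen. From each companion list, up to 4 genes that passed with the largest change at 10 CPM or more were named. The members and lists were chosen with earlier results of these data known. Position was looked at after the data were seen. DESeq2 1.42.0 and 12 other alternatives were run, changing 1 choice at a time. One further list of genes is not reported here.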

Additional observations from a re-analysis of the deposited data

How the results depend on the processing

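Of the 38 actin genes that passed, 28 kept call and direction in all of the 13 alternatives that tested them, 10 lost the call in at least 1, and none reversed. Library totals in place of TMM removed 9 calls, brought actin genes that fell to 7 and their median log2 fold change to 0.121; in the companion lists 7 other actins and myosins then fell, and 7 nucleation genes rose. The same scaling turned the sign of uncalled genes: PFN1 -0.105, PFN2 -0.063, TMSB10 -0.027, ACTR2 -0.013, ACTR3 -0.059, ARPC2 -0.105, ARPC5L -0.026, WASL -0.018, VASP -0.064 and TPM4 -0.029. Without rows that overlap another, fewer genes were tested: 3934 passed over all genes (1894 higher, 2040 lower), with 18 actin genes higher and 2 lower, 8 nucleation genes lower, 6 bundling genes higher, 5 other actins and myosins higher and 0 lower, and 4 SRF targets higher and 1 lower. DESeq2 called 2771 genes and 5 bundling genes lower; the cause was not tested. Without the filter, PFN1 was at -0.0011 and ARPC2 at -0.00067, and ACTN4 was at 0.0041 with RLE factors and 0.00067 with DESeq2. As shares of CPM without length, TPM2 was 4.32 points higher, DIAPH2 -1.32 points and MKL1 17.9 points, against 6.8, -0.986 and 16.3 per kb.

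Deviations of same-numbered libraries correlated at -0.026 over 20098 genes. With 2 libraries a label, that value cannot show whether same-numbered libraries were handled together, and the labels do not say. With the replicate block, 8254 genes passed, 34 actin genes rose and 4 fell, and ACTN4 was at 0.00021; all 38 calls held.

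Leaving out 1 library at a time gave 6128 to 7795 genes, 28 to 35 actin genes higher and 3 to 5 lower, a median of 0.238 to 0.279, and 6 to 9 other actins and myosins higher and 1 to 4 lower. For single genes that did not pass, the log2 fold changes ran from -0.061 to 0.078 for PFN1, -0.104 to 0.296 for TMSB10, -0.096 to 0.114 for ARPC2, -0.023 to 0.119 for VASP, -0.094 to 0.094 for ACTN4, -0.089 to 6.3e-05 for FLNA and -0.696 to 0.692 for FLNC. The 6 other actins and myosins came without siNAT10 replicate 2 and the 1 without siNAT10 replicate 1.

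With 2 libraries a group, intervals of about 0.15 on the log2 scale to each side bound what could be seen for genes such as PFN1; ACTA2, TAGLN, FLNC and CNN1 were too scarce for that.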

Other observations

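Of the 23 chromosomes with tested genes, chromosome 15 had the highest median log2 fold change (0.29, with 299 of 748 genes higher in the libraries labelled siNAT10 and 44 lower) and chromosome 16 the lowest (-0.22, with 105 of 1026 higher and 344 lower). On chromosome 17, 232 genes within 5 Mb of PFN1 had a median of -0.39, with 8 higher and 110 lower, whereas PFN1 itself was at 0.01, and the 190 genes around MYH10 had a median of -0.36, whereas MYH10 was at 0.19. These values were looked at after the data were seen.

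Between genes, levels are comparable only per kb of gene length. On that scale TMSB10, which sequesters actin subunits, ranked 17 of 20098 genes over all libraries, MYH9 ranked 71, EZR 77, MSN 85, ACTB 92 and ACTG1 95. FLNC ranked 19508.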
